A study of Mus musculus with 13 samples.

Results

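The 10 genes described here are inflammatory cytokine and chemokine genes, measured by RNA sequencing in mouse inguinal white adipose tissue, the subcutaneous fat depot of the groin. They are Tnf, Il6, Il1b, Il18, Il1rn, Ccl2, Ccl5, Ccl7, Ccl8 and the inflammasome sensor gene Nlrp3, chosen by symbol from the 54532 rows of the deposited table, in which each had 1 row. Each of the 13 libraries came from 1 mouse, and all mice had fasted for 12 h before the tissue was taken. SF_HPD (5 mice) had fragmented sleep and a high-protein diet, with 50% of calories from protein, 12% from fat and 38% from carbohydrate. SF_ConD (5 mice) had fragmented sleep and normal chow, and SC_ConD (3 mice) had normal sleep and normal chow. Mice had been allotted at random with matched weights, and the sources used here do not state the strain, age or sex of the mice or how sleep was interrupted.

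Tumour necrosis factor (Tnf), interleukin 6 (Il6) and interleukin 1 beta (Il1b) are secreted by activated immune and stromal cells and are classic cytokines of inflamed fat. Interleukins 1 beta and 18 are made as inactive precursors and cut by caspase 1 inside the inflammasome, a protein complex that Nlrp3 nucleates, while Il1rn encodes a secreted antagonist that occupies the interleukin 1 receptor without signalling. The CC chemokines recruit leukocytes: Ccl2 and Ccl7 draw monocytes through the receptor Ccr2, Ccl8 belongs to the same monocyte chemoattractant family, and Ccl5 is made in quantity by T cells and natural killer cells.

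The libraries held 14815592 to 18303302 recovered reads and differed in what tissue they carried, which bears on every result below. In 5 libraries (SF_HPD 4 and 5 and SF_ConD 1, 4 and 5), here called lymphoid-rich, the 12 B cell and lymph node markers averaged 4.61 to 5.58 on the log2(FPKM + 1) scale, against 0.168 to 1.38 in the other 8, and the 12 T and natural killer cell markers averaged 2.78 to 4.43 against 0.212 to 1.18. FPKM is a read count scaled to transcript length and to a factor for each library. In the deposited values that factor was 0.479 to 1.23 times the library's own total of reads, as described under the processing. SC_ConD 2 and 3 were high in liver transcripts (means of 10.05 and 8.55, at most 4.72 elsewhere), SF_HPD 4 and SC_ConD 3 in skeletal muscle transcripts (11.3 and 7.85, at most 3.64 elsewhere), and SF_HPD 2 was low in adipocyte transcripts (5.41, at least 8.51 elsewhere). In SF_HPD 1 and 4, SF_ConD 3 and SC_ConD 1 levels leaned toward long transcripts, with a Spearman correlation across genes of 0.484 to 0.563 between transcript length and a gene's level relative to the mean of all libraries, against -0.436 to 0.0319 in the other 9. In bulk tissue fewer cells of a type and less RNA per cell cannot be told apart.

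RefSeq's promoter table for GRCm38.p6 held windows for 7 of the 10 genes. The 250 bases before the start site are shown for 4 of them, chosen after the matches were seen: Tnf, Il1b and Ccl8, which held a TATA box close to the start site, and Il6, whose transcript had few reads and whose window held an NF-kappaB match. Capitals mark matches, on either strand, to the TATA box (TATAAA), the AP-1 motif (TGANTCA) or the NF-kappaB consensus, none of which overlap here.
Tnf, chr17:35202008-35202257, minus strand: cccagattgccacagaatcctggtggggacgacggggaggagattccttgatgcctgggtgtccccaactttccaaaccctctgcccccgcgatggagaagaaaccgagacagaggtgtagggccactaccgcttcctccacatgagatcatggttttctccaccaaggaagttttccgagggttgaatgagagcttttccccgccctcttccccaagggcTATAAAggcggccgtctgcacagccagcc
Il1b, chr2:129371140-129371389, minus strand: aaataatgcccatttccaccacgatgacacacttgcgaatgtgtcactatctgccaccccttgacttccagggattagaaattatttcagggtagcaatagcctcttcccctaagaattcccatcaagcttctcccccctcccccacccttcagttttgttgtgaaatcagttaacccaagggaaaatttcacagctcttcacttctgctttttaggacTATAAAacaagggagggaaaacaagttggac
Ccl8, chr11:82114935-82115184, plus strand: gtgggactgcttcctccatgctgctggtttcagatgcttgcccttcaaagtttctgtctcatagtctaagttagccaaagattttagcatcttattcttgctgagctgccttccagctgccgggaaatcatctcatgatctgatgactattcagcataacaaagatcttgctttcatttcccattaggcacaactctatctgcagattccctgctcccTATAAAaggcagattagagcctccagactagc
Il6, chr5:30012864-30013113, plus strand: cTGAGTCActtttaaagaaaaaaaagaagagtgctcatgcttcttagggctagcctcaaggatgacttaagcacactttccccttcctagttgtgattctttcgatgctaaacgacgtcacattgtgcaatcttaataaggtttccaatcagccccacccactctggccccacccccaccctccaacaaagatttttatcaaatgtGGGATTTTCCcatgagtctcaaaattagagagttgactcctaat
The TATA box began 29 bases before the start site in Tnf, 31 before in Il1b and 32 before in Ccl8. Il6 had no TATAAA match in this window, an NF-kappaB match that began 44 bases before its start site and an AP-1 match that began 249 before. Among the windows not printed, that of Il18 had its TATA box match 175 bases before the start site and on the opposite strand, 1 of 3 windows of Il1rn had an AP-1 match, and 1 of 2 windows of Nlrp3 had an NF-kappaB match. Of all 32851 windows of this length, 12.4% held the TATA box, 6.75% the AP-1 motif and 7.25% the NF-kappaB consensus, so the matches describe these windows and identify no factor.

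Tnf (chr17:35199381-35202007, minus strand) was the only one of the 10 genes whose values did not overlap between mice with fragmented sleep and mice with normal sleep on chow. Its levels were 0.0286, 0, 0.842, 1.34 and 1.85 FPKM in SF_HPD 1 to 5, 3.26, 0.491, 0.701, 2.05 and 1.65 FPKM in SF_ConD 1 to 5, and 0.253, 0 and 0 FPKM in SC_ConD 1 to 3. Every SF_ConD library was above every SC_ConD library, while the SF_HPD libraries overlapped both groups, with SF_HPD 1 and 2 near 0 and SF_HPD 5 above 3 of the 5 SF_ConD libraries. These levels rested on 95 reads over the 5 SF_HPD libraries, 214 over the 5 SF_ConD libraries and 7 over the 3 SC_ConD libraries, all 7 in SC_ConD 1. A count of 0 reads allowed up to 0.211 FPKM in SF_HPD 2, 0.197 in SC_ConD 2 and 0.161 in SC_ConD 3, taking 3 reads as the limit, which covers counting error only.

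Il6 (chr5:30013114-30019981, plus strand) had only 33 reads in all 13 libraries together. It was at 0, 0.381, 0.459, 0 and 0 FPKM in SF_HPD 1 to 5, at 0.0272, 0, 0, 0.0204 and 0.0358 FPKM in SF_ConD 1 to 5, and at 0.0244, 0 and 0 FPKM in SC_ConD 1 to 3. SF_HPD 2, with 8 reads, and SF_HPD 3, with 21, carried 29 of the 33, and no other library had more than 1. At this depth no difference between the groups was detectable.

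Il1b (chr2:129364570-129371139, minus strand) varied over overlapping ranges in the 3 groups. Its levels were 0.246, 0.121, 0.334, 3.37 and 2.54 FPKM in SF_HPD 1 to 5, 2.702, 0.703, 0.137, 1.95 and 1.73 FPKM in SF_ConD 1 to 5, and 0.373, 2.37 and 0.231 FPKM in SC_ConD 1 to 3. The high libraries within SF_HPD and SF_ConD were the lymphoid-rich ones, but SC_ConD 2 was as high with 42 reads and without those markers. Il1b overlaps the antisense gene Il1bos, and since the sources used here do not say whether counting used strand, reads of the pair cannot be told apart.

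Il18 (chr9:50554827-50581840, plus strand) was a mid-level transcript with a wide spread. It stood at 1.23, 9.86, 4.01, 2.98 and 19.9 FPKM in SF_HPD 1 to 5, at 26.5, 1.62, 0.304, 8.64 and 8.02 FPKM in SF_ConD 1 to 5, and at 0.978, 12.2 and 9.21 FPKM in SC_ConD 1 to 3. Group means were within 1 SD of each other, at 7.59 ± 7.59, 9.02 ± 10.5 and 7.47 ± 5.82 FPKM in SF_HPD, SF_ConD and SC_ConD (n = 5, 5 and 3). Il18 overlaps Bco2 and Tex12 on the opposite strand, with the same doubt.

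Il1rn (chr2:24336853-24351494, plus strand), the antagonist gene, ran lower in fragmented sleep than in SC_ConD 2 and 3. Its levels were 0.0677, 5.32, 1.90, 0.168 and 1.60 FPKM in SF_HPD 1 to 5, 1.40, 0.424, 0.0472, 0.751 and 0.487 FPKM in SF_ConD 1 to 5, and 0.0858, 13.2 and 6.23 FPKM in SC_ConD 1 to 3. SC_ConD 2 and 3 lay above all 10 libraries with fragmented sleep, but SC_ConD 1 lay below all but SF_HPD 1 and SF_ConD 3. The share of all genes highest in SC_ConD 2 and 3 was not counted. SC_ConD 2 and 3 were also the libraries with liver transcripts. Their macrophage markers averaged 4.55 and 4.35 on the log2(FPKM + 1) scale, against 3.35 in SC_ConD 1. Their neutrophil markers averaged 2.46 and 2.25 against 1.13. The macrophage mean was highest in SF_HPD 3 and SF_ConD 1, at 5.08 and 4.93, where Il1rn was at 1.90 and 1.40 FPKM. It was lowest in SF_ConD 3, at 2.48, where Il1rn was lowest too. The neutrophil mean was highest in SF_ConD 5 and SF_HPD 5, at 3.11 and 2.64, where Il1rn was at 0.487 and 1.60 FPKM. The part of liver tissue or of these immune cells in the Il1rn level was not tested.

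Ccl2, Ccl7 and Ccl8 lie on the plus strand of chromosome 11, within 81229 bases of each other, from chr11:82035571-82037453 (Ccl2) over chr11:82045712-82047525 (Ccl7) to chr11:82115185-82116799 (Ccl8). Ccl2 was at 0.658, 1.42, 5.18, 0.968 and 4.61 FPKM in SF_HPD 1 to 5, at 4.47, 1.59, 1.01, 1.22 and 2.98 FPKM in SF_ConD 1 to 5, and at 0.313, 10.97 and 13.2 FPKM in SC_ConD 1 to 3. Ccl7 was at 0.585, 7.36, 7.95, 0.868 and 5.16 FPKM in SF_HPD 1 to 5, at 8.08, 1.09, 0, 2.41 and 2.72 FPKM in SF_ConD 1 to 5, and at 1.11, 14.7 and 10.9 FPKM in SC_ConD 1 to 3. Both genes were highest in SC_ConD 2 and 3 and low in SC_ConD 1, so the SC_ConD values lay on both sides of every other Ccl2 value and reached above every other Ccl7 value. How many of all genes were highest in SC_ConD 2 and 3 was not counted. Ccl2 overlaps the unnamed gene model Gm17268 on the opposite strand, with the doubt given for Il1b.

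Ccl8, the third gene of the cluster, had the highest mean of the 10 in every group and a different order of libraries. It was at 5.86, 26.4, 62.1, 37.1 and 166 FPKM in SF_HPD 1 to 5, at 614, 15.9, 1.84, 135 and 175 FPKM in SF_ConD 1 to 5, and at 1.74, 18.3 and 110 FPKM in SC_ConD 1 to 3. The groups overlapped throughout, and SF_ConD 1 alone carried 4749 of the 7307 reads of SF_ConD. Within SF_ConD the 3 lymphoid-rich libraries were at least 135 FPKM and the other 2 at most 15.9.

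Ccl5 (chr11:83525778-83530518, minus strand), 1408978 bases beyond Ccl8, split the libraries by their lymphoid markers. It was at 0.634, 0, 2.60, 20.2 and 150 FPKM in SF_HPD 1 to 5, at 229, 5.16, 2.29, 121 and 119 FPKM in SF_ConD 1 to 5, and at 2.47, 2.58 and 6.96 FPKM in SC_ConD 1 to 3. The 5 lymphoid-rich libraries, at 20.2 to 229 FPKM, were all above the other 8, at 0 to 6.96 FPKM. The share of all genes with this order over the 13 libraries was not counted. Within SF_ConD alone 18.6% of all genes had the lymphoid-rich libraries above the rest, and within SF_HPD alone 8.28%. SC_ConD held no lymphoid-rich library, and its 3 values lay inside the range of the 5 remaining libraries with fragmented sleep except for SC_ConD 3, which was above them.

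Nlrp3 (chr11:59541568-59566956, plus strand) was scarcely transcribed, at 0.0346, 0, 0.0523, 0.543 and 0 FPKM in SF_HPD 1 to 5, 0.375, 0.0165, 0.0258, 0.390 and 0 FPKM in SF_ConD 1 to 5, and 0.234, 0 and 0 FPKM in SC_ConD 1 to 3. No library reached 1 FPKM, and 119 reads were found over all 13. Each group had 1 or 2 libraries with at least 16 reads and at least 1 with none.

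**Figure D1:**
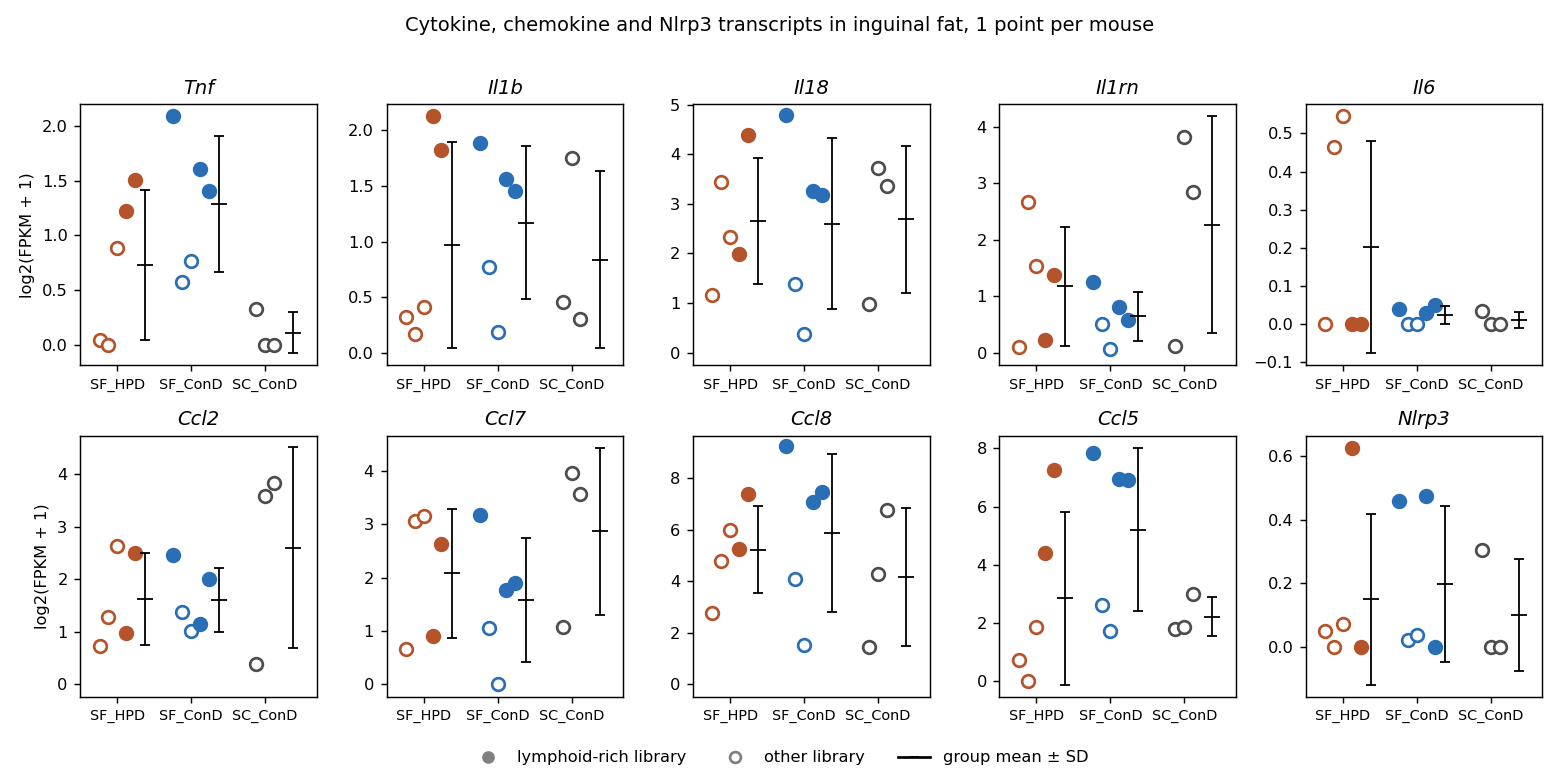
Level of each of the 10 genes as log2(FPKM + 1), 1 point per mouse, for SF_HPD, SF_ConD and SC_ConD. Filled points are the 5 lymphoid-rich libraries, bars are the group mean ± SD (n = 5, 5 and 3). For Ccl5 and Tnf every filled point lies above every open one, an order whose share among all genes was not counted. For Tnf every SF_ConD point lies above every SC_ConD point, and 3.6% of all genes had no overlap between these groups.

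Per length, the genes stood in a similar order of mean FPKM in both groups with fragmented sleep. In SF_HPD the means ran from Ccl8 (59.5 ± 62.9 FPKM) and Ccl5 (34.7 ± 65.1) over Il18 (7.59), Ccl7 (4.38 ± 3.50), Ccl2 (2.57 ± 2.15), Il1rn (1.81 ± 2.13) and Il1b (1.32 ± 1.52) to Tnf (0.812 ± 0.810), Il6 (0.168 ± 0.232) and Nlrp3 (0.126 ± 0.234; SD, n = 5). In SF_ConD they ran from Ccl8 (188 ± 249 FPKM) and Ccl5 (95.4 ± 94.8) over Il18 (9.02), Ccl7 (2.86 ± 3.12), Ccl2 (2.25 ± 1.46), Tnf (1.63 ± 1.12), Il1b (1.44 ± 1.02) and Il1rn (0.621 ± 0.501) to Nlrp3 (0.161 ± 0.202) and Il6 (0.0167 ± 0.0162; SD, n = 5). In SC_ConD they ran from Ccl8 (43.2 ± 58.1 FPKM) over Ccl7 (8.88 ± 6.99), Ccl2 (8.17 ± 6.89), Il18 (7.47), Il1rn (6.51 ± 6.57) and Ccl5 (4.005 ± 2.56) to Il1b (0.992 ± 1.197), Tnf (0.0845 ± 0.146), Nlrp3 (0.0780 ± 0.135) and Il6 (0.00815 ± 0.0141; SD, n = 3). Neighbours in these orders differed by less than the larger of their SDs, except Ccl5 and Il1b in SC_ConD, whose means lay further apart than either SD.

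In mice with fragmented sleep on chow, set against mice with normal sleep, Tnf was higher and Il1rn lower in mean, Ccl5 and Ccl8 were higher in mean with very wide spread, and Ccl2 and Ccl7 were lower in mean. None of these differences passed the test across all genes. This comparison asks what fragmented sleep did on chow, and 8 of the 10 genes were kept by the filter of at least 1 FPKM in at least 3 libraries, Il6 and Nlrp3 being too low. With limma on log2(FPKM + 1) and Benjamini-Hochberg adjustment over the 14421 genes kept, 0 of the 8 passed at 0.05, where 0% of all genes did, and 2 had an unadjusted p under 0.05, against 5.74% of all genes. Only Tnf had groups without overlap, against 3.6% of all genes. Limma-voom on recovered reads passed 0 genes in any of the 3 comparisons, with 614 of the 14421 genes at an unadjusted p under 0.05 in this one, 261 in SF_HPD against SF_ConD and 459 in SF_HPD against SC_ConD. A fold change here is on the log2(FPKM + 1) scale, which understates the changes of low genes.

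Tnf averaged 1.63 ± 1.12 FPKM in SF_ConD and 0.0845 ± 0.146 FPKM in SC_ConD, a log2 fold change of 1.18 (SE 0.42, limma adjusted p = 0.791). This size depended on the scale and on the lymphoid markers: it was 3.23 with a pseudocount of 0.1, 4.42 with limma-voom on recovered reads and 0.46 with the B cell and lymph node markers as a covariate (limma adjusted p = 0.804, 1 and 1). Il1rn averaged 0.621 ± 0.501 FPKM in SF_ConD and 6.51 ± 6.57 FPKM in SC_ConD, a log2 fold change of -1.62 (SE 0.74, limma adjusted p = 0.861). These were the 2 genes with an unadjusted p under 0.05. The change of Ccl5 was larger on paper, at 2.996, but its SE of 1.67 left a 95% confidence interval of -0.62 to 6.61. The fold changes were 1.71 (SE 1.62) for Ccl8, -1.29 (SE 0.84) for Ccl7, -1.01 (SE 0.73) for Ccl2, 0.33 (SE 0.55) for Il1b and -0.09 (SE 0.98) for Il18. On the scale of the fit, the mean of log2(FPKM + 1), 4 of the 8 genes were higher and 4 lower, with a median log2 fold change of 0.12, where all genes had -0.03. Il18 counts as lower on that scale, though its mean FPKM was higher in SF_ConD. Without the filter Il6 had a fold change of 0.01 and Nlrp3 of 0.10, and neither passed.

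In mice with fragmented sleep, the high-protein diet went with lower mean Ccl5, Tnf and Ccl8 and higher mean Il1rn and Ccl7 than chow, and Ccl2, Il18 and Il1b hardly differed in mean. Again none passed. This comparison asks about the diet under fragmented sleep, and the title of the series names adipose tissue inflammation. By the same limma fit 0 of the 8 genes passed, where 0% of all genes did, 0 had an unadjusted p under 0.05 against 1.89% of all genes, and 0 had groups without overlap against 0.458%. The comparison shares the SF_ConD libraries with the one before it.

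Ccl5 averaged 34.7 ± 65.1 FPKM in SF_HPD and 95.4 ± 94.8 FPKM in SF_ConD, a log2 fold change of -2.37 (SE 1.45, limma adjusted p = 1). SF_HPD held 2 lymphoid-rich libraries and SF_ConD held 3. Tnf averaged 0.812 ± 0.810 FPKM in SF_HPD and 1.63 ± 1.12 FPKM in SF_ConD, a log2 fold change of -0.56 with a 95% confidence interval of -1.35 to 0.24 (limma adjusted p = 1). The others were at -0.64 (SE 1.41) for Ccl8, 0.54 (SE 0.64) for Il1rn, 0.50 (SE 0.72) for Ccl7, -0.20 (SE 0.48) for Il1b, 0.06 (SE 0.85) for Il18 and 0.02 (SE 0.63) for Ccl2. On the scale of the fit 4 of the 8 genes were higher and 4 lower, Il18 being higher there but lower in mean FPKM, with a median of -0.09, where all genes had 0.01.

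Mice with fragmented sleep on the high-protein diet, set against mice with normal sleep on chow, had higher mean Ccl8, Ccl5 and Tnf and lower mean Il1rn, Ccl2 and Ccl7, and none passed. This comparison shares its libraries with the other comparisons, so it is no separate evidence. In the limma fit 0 of the 8 genes passed, where 0% of all genes did, 0 had an unadjusted p under 0.05 against 3.68% of all genes, and 0 had groups without overlap against 1.64%. The log2 fold changes were 1.06 (SE 1.62) for Ccl8, 0.63 (SE 1.67) for Ccl5, 0.62 (SE 0.42) for Tnf, 0.13 (SE 0.55) for Il1b, -0.03 (SE 0.98) for Il18, -0.79 (SE 0.84) for Ccl7, -0.98 (SE 0.73) for Ccl2 and -1.09 (SE 0.74) for Il1rn. For Tnf the 95% confidence interval ran from -0.29 to 1.54. The median SE over the 8 genes was 0.79, 0.68 and 0.79 in the order of the comparisons given, against 0.47, 0.41 and 0.47 over all genes, while that of Tnf was lower, at 0.42, 0.37 and 0.42.

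**Figure D2:**
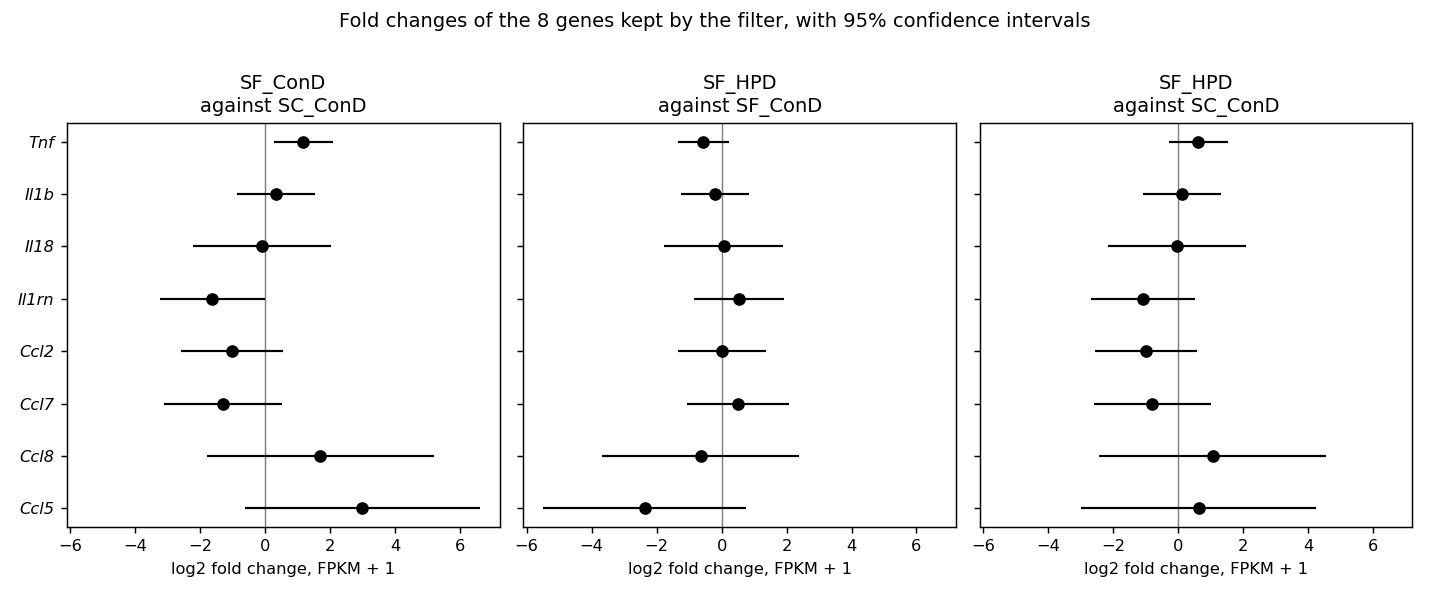
Log2 fold changes on the FPKM + 1 scale (points) with 95% confidence intervals (lines) from limma for the 8 genes kept by the filter, 1 panel per comparison. In SF_ConD against SC_ConD the intervals of Tnf and Il1rn leave out 0 before adjustment, and those of all 8 genes cross 0 in the other panels.

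Within SF_ConD, but not within SF_HPD, the lymphoid-rich libraries held the high values of most of these genes. Within SF_ConD the 3 lymphoid-rich libraries were above the other 2 for 8 of the 10 genes, Tnf, Il1b, Il18, Il1rn, Ccl5, Ccl7, Ccl8 and, on 1 read in each, Il6, where 18.6% of all genes had this order. Within SF_HPD the 2 lymphoid-rich libraries were above the other 3 for 3 of the 10 genes, Tnf, Il1b and Ccl5, where 8.28% of all genes had it. The summed FPKM of the 12 B cell and lymph node markers was 480 to 2564 in the lymphoid-rich libraries and 2.35 to 34.5 in the others. Markers of other immune cells moved with the same split. Within SF_ConD, on the log2(FPKM + 1) scale, the macrophage markers averaged 4.93, 4.40 and 3.94 in the lymphoid-rich libraries 1, 4 and 5, against 3.85 and 2.48 in 2 and 3. The mast cell markers averaged 4.70, 3.72 and 3.79 there against 1.85 and 1.28, and the neutrophil markers 2.56, 2.36 and 3.11 against 2.24 and 1.02. Within SF_HPD the mast cell markers (3.51 and 3.81 in libraries 4 and 5, at most 3.27 in the others) and the neutrophil markers (2.54 and 2.64, at most 1.38) followed it too, but the macrophage markers did not (3.68 and 4.38, against 3.87, 3.19 and 5.08). Which of these cell types carried the 10 transcripts was not tested.

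**Figure D3:**
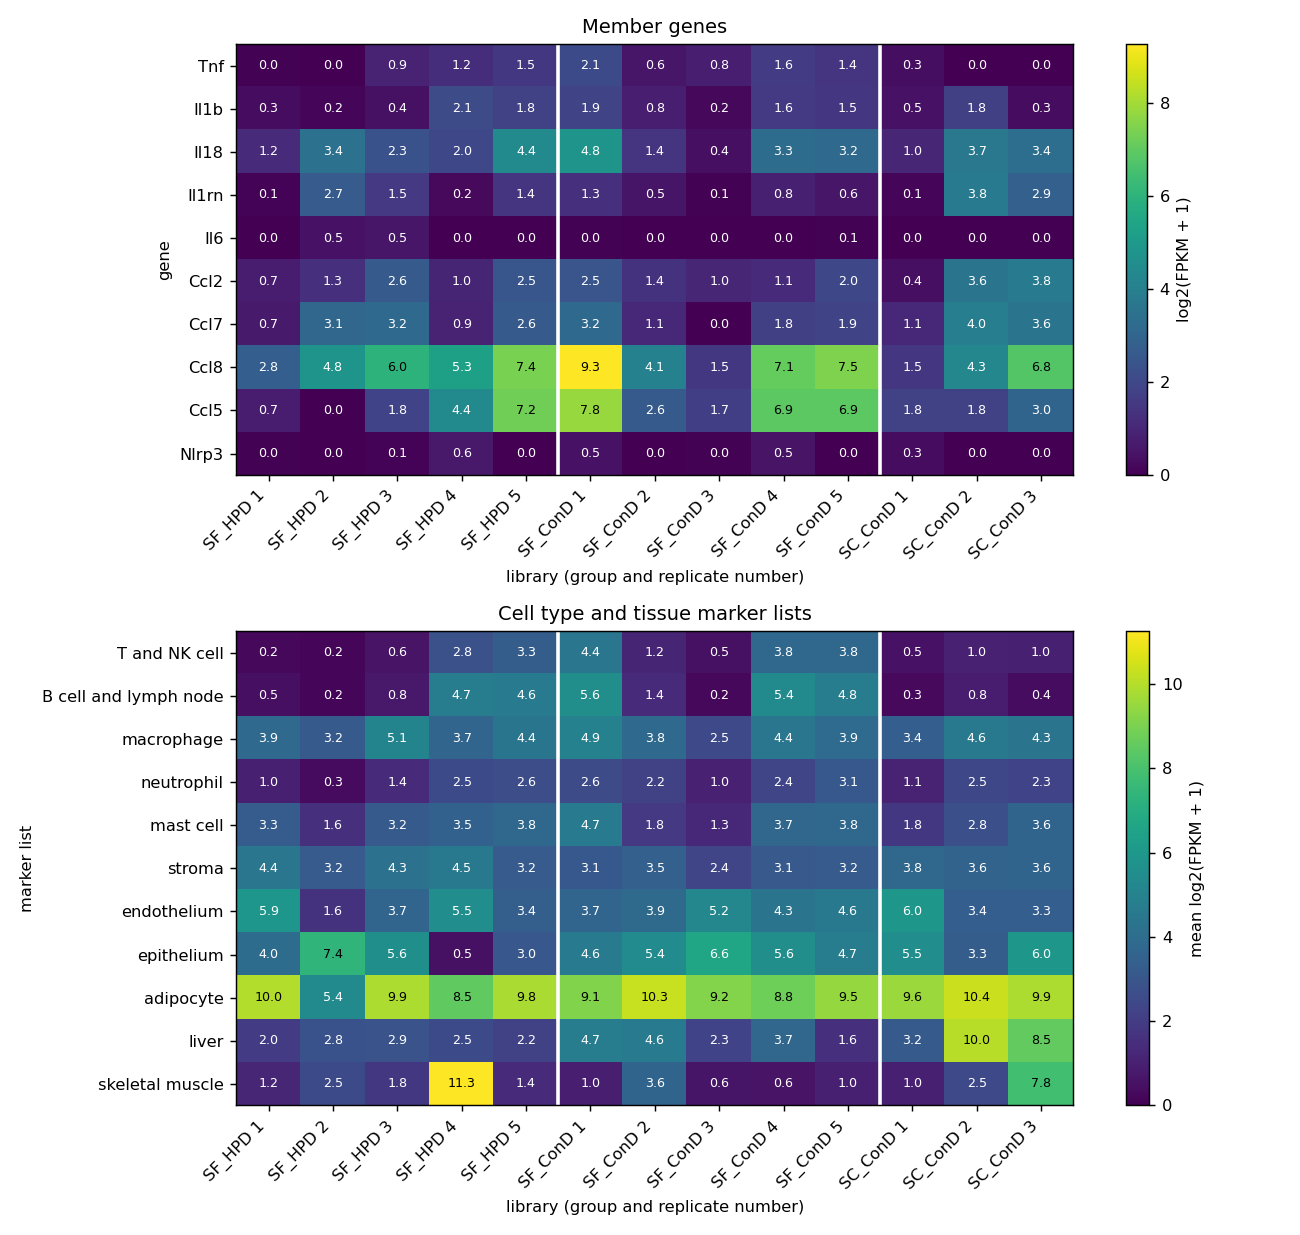
Each of the 10 genes, as log2(FPKM + 1), and each marker list, as the mean log2(FPKM + 1) of its genes, in the 13 libraries, with SF_HPD at the left, SF_ConD in the middle and SC_ConD at the right. Ccl5 and Tnf are high in the libraries where the T and NK cell and the B cell and lymph node rows are high. Ccl2, Ccl7 and Il1rn are highest in SC_ConD 2 and 3, where the liver row is high. The macrophage and neutrophil rows are also higher there than in SC_ConD 1. The share of all genes highest in SC_ConD 2 and 3 was not counted.

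Without the 5 lymphoid-rich libraries, which leaves 3 SF_HPD, 2 SF_ConD and 3 SC_ConD mice, the differences moved, some toward 0 or past it and some away from it. In SF_ConD against SC_ConD the log2 fold change of Ccl5 was then -0.04, that of Ccl8 -1.38 and that of Tnf 0.56, while Il18 stood at -1.80 and Ccl7 at -2.34. In SF_HPD against SF_ConD Ccl5 was at -1.32, Tnf at -0.36, Ccl8 at 1.72, Il18 at 1.42, Ccl7 at 1.77 and Il1rn at 1.14. In SF_HPD against SC_ConD Tnf was at 0.20 and Ccl5 at -1.36. None passed the test then either, and Tnf kept its sign in all 3 comparisons.

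Il1rn, Ccl2 and Ccl7 in the comparisons with SC_ConD turned on its libraries instead. Leaving out SC_ConD 2 and 3 keeps SC_ConD 1 alone and assumes that it varies like the other groups. The log2 fold change in SF_ConD against SC_ConD was then 0.52 for Il1rn, 1.202 for Ccl2 and 0.50 for Ccl7. Il18, at -0.09 with all libraries, changed sign as well and was then at 1.62. Leaving out 1 SC_ConD library at a time gave -2.698 to -0.84 for Il1rn, -2.11 to -0.39 for Ccl2 and -2.19 to -0.74 for Ccl7, lowest in each case without SC_ConD 1. Without SC_ConD 1, that of Il1rn was -2.698 (limma adjusted p = 0.0614), its value nearest to the threshold under any alternative, and 194 of the 14421 genes passed, 5 higher and 189 lower, none of them among the 10. SC_ConD 1 was one of the 4 libraries that leaned toward long transcripts. In those 4 Il1rn stood at 0.0472 to 0.168 FPKM, below every other library (0.424 to 13.2 FPKM), and Ccl2 at 0.313 to 1.01 FPKM against 1.22 to 13.2 FPKM, an order that 13.5% of all genes had. With this lean as a covariate the log2 fold change in SF_ConD against SC_ConD was -1.77 (SE 0.45, limma adjusted p = 0.243) for Il1rn and -1.48 (SE 0.36, limma adjusted p = 0.243) for Ccl7. The listed lengths were 5535 bases for Il1rn, the longest of the 10 genes, 1138 for Ccl2 and 801 for Ccl7. The part of liver tissue, macrophages, neutrophils or transcript length in these differences was not tested.

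**Figure D4:**
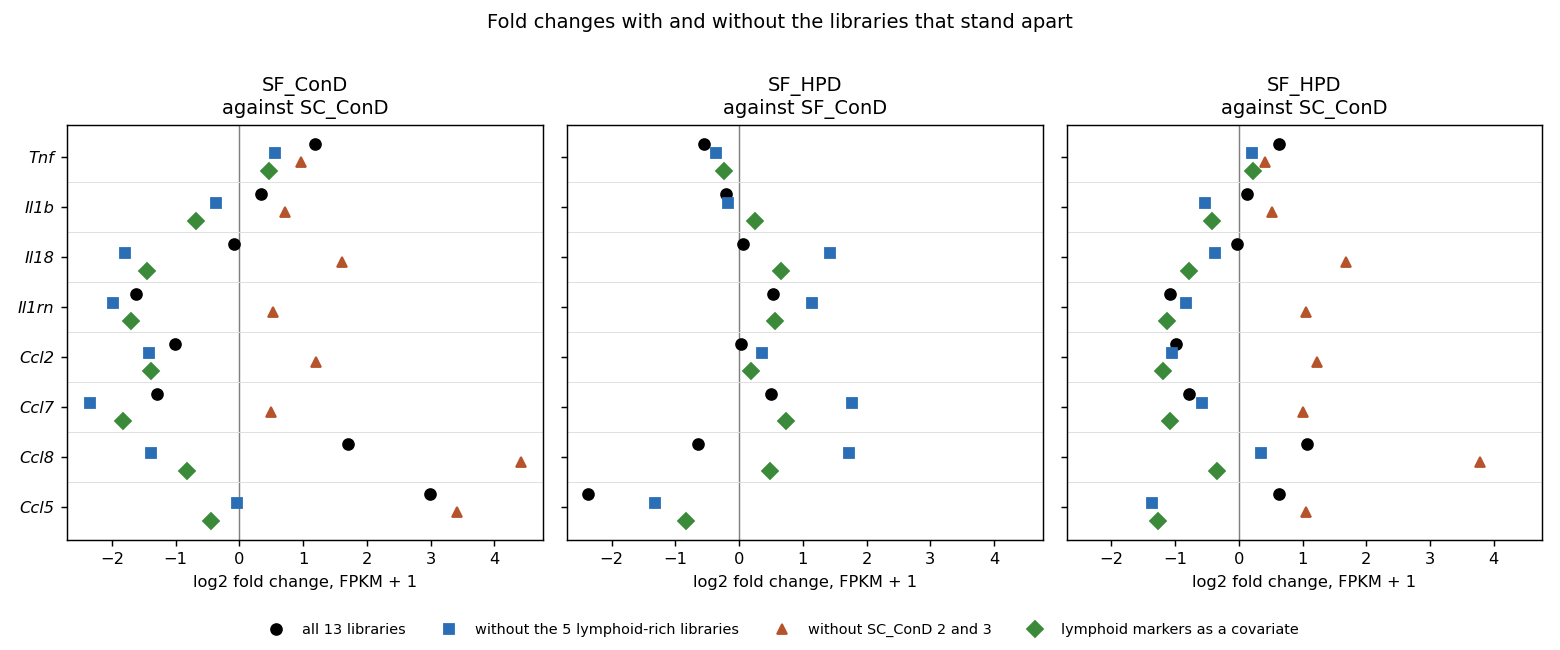
Log2 fold changes on the FPKM + 1 scale of the 8 genes with all 13 libraries, without the 5 lymphoid-rich libraries, without SC_ConD 2 and 3, and with the lymphoid markers as a covariate, 1 panel per comparison. Tnf keeps its sign throughout, and Ccl5 in SF_ConD against SC_ConD moves from 2.996 to -0.04 without the lymphoid-rich libraries. Il18, Il1rn, Ccl2 and Ccl7 change sign in the comparisons with SC_ConD without SC_ConD 2 and 3.

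Other genes of these pathways were read from lists of receptors, inflammasome and processing genes, NF-kappaB signalling genes and further CC chemokines. No gene of any list passed in any comparison, and higher and lower refer here to means of log2(FPKM + 1). In SF_ConD against SC_ConD all 10 kept inflammasome and processing genes of the 11 listed were higher in mean, against 47.4% of all genes. Their median log2 fold change was 0.31, where all genes had -0.03. In SF_HPD against SF_ConD all 10 were lower in mean, while 51.9% of all genes were higher. The median was -0.37, where all genes had 0.01. These comparisons share the SF_ConD libraries, so the rise and the fall are not separate evidence. SF_ConD held more lymphoid-rich libraries than SF_HPD, and SC_ConD held no such library. The lists were not counted without the lymphoid-rich libraries. The genes of the inflammasome and processing list with the smallest p in SF_ConD against SC_ConD were the DNA sensor Aim2 and the sheddase Adam17. Adam17 releases tumour necrosis factor from the cell surface. In SF_HPD against SF_ConD the genes of smallest p were Il18bp, whose secreted protein neutralises interleukin 18, and Nek7, a kinase that binds Nlrp3. Il18bp averaged 2.05 ± 1.72 FPKM in SF_HPD and 6.92 ± 6.82 FPKM in SF_ConD, a log2 fold change of -1.22 (SE 0.50, limma adjusted p = 1), which was -0.75 without the lymphoid-rich libraries. Aim2 averaged 3.42 ± 2.83 FPKM in SF_ConD and 0.892 ± 0.159 FPKM in SC_ConD, a log2 fold change of 0.96 (limma adjusted p = 0.919) that was -0.04 without the lymphoid-rich libraries. In SF_HPD against SC_ConD the list had 4 genes higher and 6 lower in mean, with Adam17 at 0.33 and Nek7 at -0.37. Adam17 was at 0.54 in SF_ConD against SC_ConD, or 0.24 without the lymphoid-rich libraries, and Nek7 at -0.54 in SF_HPD against SF_ConD, or -0.82 without them.

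All 18 NF-kappaB signalling and feedback genes were kept. In SF_ConD against SC_ConD 15 were higher and 3 lower in mean (median 0.30), where 47.4% of all genes were higher. In SF_HPD against SF_ConD 6 were higher and 12 lower (median -0.35), where 51.9% of all genes were higher. In SF_HPD against SC_ConD 12 were higher and 6 lower (median 0.11), where 51.8% of all genes were higher. The adaptor gene Traf2 averaged 6.02 ± 2.19 FPKM in SF_ConD and 3.09 ± 0.451 FPKM in SC_ConD, a log2 fold change of 0.74 (SE 0.28, limma adjusted p = 0.831), and was at -0.48 in SF_HPD against SF_ConD. Without the lymphoid-rich libraries Traf2 was at 0.46 and -0.30 in these comparisons. Myd88, the adaptor of the interleukin 1 and Toll-like receptors, was at 0.51 in SF_ConD against SC_ConD. Socs3, a feedback inhibitor of cytokine signalling, averaged 4.19 ± 2.03 FPKM in SF_HPD and 9.55 ± 4.06 FPKM in SC_ConD, a log2 fold change of -1.05 (SE 0.43, limma adjusted p = 1), and was at -0.70 in SF_HPD against SF_ConD. Nfkbiz, an inducible regulator of NF-kappaB targets, was at -0.54 in SF_HPD against SC_ConD.

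Of the 15 receptor genes 13 were kept, 7 higher and 6 lower in mean in SF_ConD than in SC_ConD (median 0.23), 4 higher and 9 lower in SF_HPD than in SF_ConD (median -0.17), and 5 higher and 8 lower in SF_HPD than in SC_ConD (median -0.14). Il1r1, the signalling receptor of interleukin 1, averaged 2.78 ± 0.739 FPKM in SF_ConD and 15.7 ± 11.98 FPKM in SC_ConD. The groups did not overlap, as for 3.6% of all genes, but they came close. SF_ConD ran from 1.95 to 3.60 FPKM and SC_ConD from 3.66 to 27.6 FPKM. The log2 fold change of Il1r1 was -1.82 (SE 0.51, limma adjusted p = 0.716), and it was -1.89 without the lymphoid-rich libraries. Its value without single SC_ConD libraries is not given here. In SF_HPD against SC_ConD Il1r1 was at -1.59 (SE 0.51, limma adjusted p = 0.686). The interleukin 18 receptor genes Il18rap and Il18r1 and the chemokine scavenger gene Ackr1 were at 0.55 (Il18rap, SF_ConD against SC_ConD), -0.46 (Il18r1) and -0.54 (Ackr1, both SF_HPD against SF_ConD) on the log2 fold change scale. Il18rap was at 0.36 in SF_HPD against SC_ConD. Without the lymphoid-rich libraries Il18rap was at 0.03 in SF_ConD against SC_ConD and 0.08 in SF_HPD against SC_ConD, Il18r1 at -0.23 and Ackr1 at -0.15.

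Of the 11 further CC chemokine genes 10 were kept, 6 higher and 4 lower in mean in SF_ConD than in SC_ConD (median 0.62), 5 higher and 5 lower in SF_HPD than in SF_ConD (median -0.06), and 6 higher and 4 lower in SF_HPD than in SC_ConD (median 0.50). Ccl4, a macrophage inflammatory protein gene, averaged 1.15 ± 1.08 FPKM in SF_HPD and 1.71 ± 1.62 FPKM in SF_ConD. It was listed at 0 in each of the 3 SC_ConD libraries and was at least 0.238 FPKM in SF_ConD. These groups did not overlap, as for 3.6% of all genes. Its log2 fold change in SF_ConD against SC_ConD, with 1 added to FPKM, was 1.24 (SE 0.50, limma adjusted p = 0.861). Without the lymphoid-rich libraries it was 0.50. Ccl24, an eosinophil attractant, averaged 5.06 ± 2.79 FPKM in SF_HPD, 2.23 ± 2.47 FPKM in SF_ConD and 17.3 ± 22.5 FPKM in SC_ConD. Its log2 fold change was -1.80 in SF_ConD against SC_ConD (limma adjusted p = 0.872) and 1.08 in SF_HPD against SF_ConD. Ccl3, of the same kind as Ccl4, was at 0.76 in SF_HPD against SC_ConD, or 1.22 without the lymphoid-rich libraries. Ccl21a, a lymph node chemokine whose near-identical copies make its counting uncertain, was at -1.54 in SF_HPD against SF_ConD and at 0.21 without the lymphoid-rich libraries.

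The genes most like 5 of the 10 across the 13 libraries were ranked by Pearson correlation of log2(FPKM + 1) after group means were taken off, among 12231 genes. The libraries share their lymphoid content and length lean and fall into clusters, so the coefficients describe these libraries only. Ccl5 was most like Ms4a4c (0.989), the T cell adaptor gene Lat (0.988) and Cytip (0.986), which were at least 8.64, 9.78 and 9.504 FPKM in the lymphoid-rich libraries and at most 1.94, 1.31 and 3.65 FPKM in the others. Tnf was most like H2-M3 (0.952), Cd7 (0.948) and Slamf7 (0.946), and Ccl5 came 40th for it (0.907). Il1b was most like Gcsam (0.963), Slc17a9 (0.952) and Klra7 (0.943). Ccl2 was most like Farsb (0.967), Gdf15 (0.945) and Pinx1 (0.936), and its neighbour Ccl7 came 118th (0.834). Il18 was most like Dnajc2 (0.972), Gmfg (0.971) and the macrophage gene Aif1 (0.970), with Ccl8 at 87th (0.901) and Ccl7 at 146th (0.878).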

How the data were processed

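RNA of 13 inguinal fat samples was sequenced, and the authors deposited FPKM values in 1 table of genes. The submitters' processing notes name CASAVA, HISAT2 2.0.5, featureCounts 1.5.0-p3 and the mouse build mm8, without roles. Neither the strand setting nor the annotation is stated in the sources used here. Coordinates are as the table lists them, and the start sites of Tnf, Il6, Il1b and Ccl8 are those of GRCm38.p6. FPKM times gene length, divided by the smallest step of the library, gave whole reads within 0.05 for 100% of values. The divisor the authors' FPKM values imply was 0.479 to 1.23 times a library's own total of reads and, relative to its mean, 0.947 to 1.03 times the median-of-ratios size factor, so deposited values are scaled close to that factor.

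Values were tested as log2(FPKM + 1) in the 14421 genes with at least 1 FPKM in at least 3 libraries. Limma 3.58.1 in R 4.3.3 (eBayes with trend and robust, two-sided) fitted group means to all 13 libraries, with Benjamini-Hochberg adjustment at 0.05. Limma-voom on recovered reads was an alternative, and the limma steps were tested on simulated data. Other alternatives changed the pseudocount, the filter, the scaling, the libraries used, the covariates and the replicate block. Named besides the 10 genes are the 2 genes of smallest p in each pathway list and comparison, and the 3 most like Tnf, Il1b, Ccl2, Ccl5 and Il18. The 10 genes, the lists, the groups of libraries that stand apart and the alternatives were chosen with earlier results of these data known. No 2 libraries were as close as sampling noise (lowest chi-square per degree of freedom within a group 96.5). Same-numbered libraries were checked for pairing by the correlation of their deviations from the group means: these were -0.558, 0.190 and -0.316 for SF_ConD and SC_ConD, -0.670, 0.119, -0.113, 0.325 and 0.405 for SF_HPD and SF_ConD, and 0.711, 0.333 and 0.191 for SF_HPD and SC_ConD. The last 3 exceed 0.1, a hint of pairing from the data alone, since the labels give no source of a pairing. SF_HPD 3 correlated more with another SC_ConD library than with SC_ConD 3, and SF_HPD 1 and SC_ConD 1 share the lean toward long transcripts. The reported fits are unpaired, and the replicate block was used only as an alternative.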

Additional observations from a re-analysis of the deposited data

Results flagged for a closer look

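In groups of 5 libraries a value was picked out where its gap to the nearest other, divided by the range, exceeded 0.71. Chance gives this in about 1 of 20 groups of normally distributed values. FPKM values were used, and several groups had an SD as large as the mean, so this share need not hold here. Of 20 groups tested, 3 held such a value. Ccl5 in SF_HPD 5 was at 150.261 FPKM, with the next library of the group at 20.2. Ccl8 in SF_ConD 1 was at 613.985 FPKM, with the next at 175. Nlrp3 in SF_HPD 4 was at 0.542808 FPKM, with the next at 0.0523. All 3 values lay in lymphoid-rich libraries, but SF_HPD 4 also leaned toward long transcripts and was high in skeletal muscle transcripts.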

How the results depend on the processing

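Under 27 settings other than the one reported, 0 of the 8 genes passed in any comparison in which they were fitted (a mean of at least 5 FPKM keeps only Ccl5, Ccl8 and Il18, and a library was left out only in comparisons with its group), with a smallest adjusted p of 0.0614, and of 513 log2 fold changes 449 kept their sign and 64 changed it, 26 of these on leaving out 1 library. Scaling to TPM moved the median log2 fold change of all genes from -0.03 to 0.16 in SF_ConD against SC_ConD and from 0.02 to 0.25 in SF_HPD against SC_ConD, and scaling to the own total moved it to 0.16 and 0.13; the changes given here include that shift. The log2 fold changes that changed sign were these. With the lean toward long transcripts as a covariate, Il18 was at 0.0089 in SF_HPD against SC_ConD. With limma-voom on recovered reads, Ccl2 was at -0.098 in SF_HPD against SF_ConD, and Il18 was at 0.014 and Ccl5 at -0.16 in SF_HPD against SC_ConD. With the B cell and lymph node markers as a covariate, Il1b was at -0.68, Ccl5 at -0.44 and Ccl8 at -0.82 in SF_ConD against SC_ConD, and Il1b was at 0.25 and Ccl8 at 0.48 in SF_HPD against SF_ConD, and Il1b was at -0.43, Ccl5 at -1.27 and Ccl8 at -0.34 in SF_HPD against SC_ConD. With a pseudocount of 0.1, Ccl2 was at -0.037 in SF_HPD against SF_ConD, and Il18 was at 0.024 and Ccl5 at -0.020 in SF_HPD against SC_ConD. In the paired fit with the replicate block, Il1b was at -0.11 in SF_ConD against SC_ConD, and Il1b was at -0.31 and Ccl5 at -0.94 in SF_HPD against SC_ConD. After rescaling to TPM, Il18 was at 0.083 in SF_ConD against SC_ConD, and Il18 was at 0.24 in SF_HPD against SC_ConD. After scaling to the own total of reads, Il18 was at 0.15 in SF_ConD against SC_ConD, and Il18 was at -0.058 and Ccl2 at -0.038 in SF_HPD against SF_ConD, and Il18 was at 0.091 in SF_HPD against SC_ConD. Without SC_ConD 2 and 3, Il18 was at 1.62, Il1rn at 0.52, Ccl2 at 1.202 and Ccl7 at 0.50 in SF_ConD against SC_ConD, and Il18 was at 1.68, Il1rn at 1.06, Ccl2 at 1.23 and Ccl7 at 1.005 in SF_HPD against SC_ConD. Without the lymphoid-rich libraries, Il1b was at -0.36, Ccl5 at -0.039 and Ccl8 at -1.38 in SF_ConD against SC_ConD, and Ccl8 was at 1.72 in SF_HPD against SF_ConD, and Il1b was at -0.54 and Ccl5 at -1.36 in SF_HPD against SC_ConD. The causes were not tested. Leaving out each library in turn gave ranges of -2.11 to -0.39 for Ccl2, 2.34 to 3.87 for Ccl5, -2.19 to -0.74 for Ccl7, 0.35 to 3.01 for Ccl8, -0.94 to 0.47 for Il18, 0.065 to 0.79 for Il1b, -2.70 to -0.84 for Il1rn and 0.98 to 1.36 for Tnf in SF_ConD against SC_ConD, -0.23 to 0.25 for Ccl2, -3.47 to -1.65 for Ccl5, 0.11 to 0.90 for Ccl7, -1.74 to 0.20 for Ccl8, -0.49 to 0.61 for Il18, -0.49 to 0.0010 for Il1b, 0.16 to 0.81 for Il1rn and -0.75 to -0.36 for Tnf in SF_HPD against SF_ConD, -2.09 to -0.37 for Ccl2, -0.47 to 1.34 for Ccl5, -1.69 to -0.24 for Ccl7, -0.30 to 2.37 for Ccl8, -0.88 to 0.49 for Il18, -0.16 to 0.59 for Il1b, -2.16 to -0.31 for Il1rn and 0.43 to 0.81 for Tnf in SF_HPD against SC_ConD. Over all genes, 0 passed in the reported fits. Leaving out SC_ConD 1 passed 194 in SF_ConD against SC_ConD and 196 in SF_HPD against SC_ConD, leaving out SF_HPD 5 passed 1 in each comparison with SF_HPD, and none of the other settings passed any gene in the comparisons fitted. The replicate block changed no call. Group means stayed within 1 SD for 30 of 30 levels under own-total scaling and 22 of 30 under TPM. With 3 SC_ConD mice and 33 to 632 reads over all libraries for Il6, Nlrp3, Tnf, Il1b and Ccl7, depth and group size limit what could be detected.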
